A study of Mus musculus with 6 samples.

Results

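The genes described here are 10 components of bone morphogenetic protein (BMP) signalling, taken by name from the 55416 genes in the deposited tables: the ligand genes Bmp2, Bmp3, Bmp4 and Bmp7, the receptor genes Bmpr1a and Bmpr2, the inhibitory SMAD gene Smad6, and the target genes Id1, Id2 and Id3. Their identifiers, in that order, are ENSMUSG00000027358, ENSMUSG00000029335, ENSMUSG00000021835, ENSMUSG00000008999, ENSMUSG00000021796, ENSMUSG00000067336, ENSMUSG00000036867, ENSMUSG00000042745, ENSMUSG00000020644 and ENSMUSG00000007872. All 10 were found and 9 were tested, since Bmp4 was too low. They were measured by RNA-seq in mouse small intestinal organoids, which are epithelial cultures grown in a gel from isolated intestinal cells of mice aged 4 to 8 weeks. All organoids carried Rosa26-rtTA Tg/Tg and Col1A1-TetO-OSKM Tg/Tg, a doxycycline-responsive transactivator and a cassette of Oct4 (gene Pou5f1), Sox2, Klf4 and Myc. The control group received no doxycycline by its label, while doxycycline was given over 3 days at 0.1 µg/ml (the low dose) or 0.5 µg/ml (the high dose). Each of the 3 groups has 2 libraries. Because every group carried the transgenes, an effect of doxycycline itself and an effect of the factors cannot be told apart. The labels name the culture medium, IntestiCult, and do not say whether it holds a BMP antagonist. The series calls the libraries of a group biological replicates without saying whether they come from separate mice or cultures, so the p-values measure the spread between these libraries, which may be technical.

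BMP ligands are secreted dimers that bind a complex of type I and type II receptor kinases. The activated type I receptor phosphorylates SMAD1, SMAD5 and SMAD9, which enter the nucleus with SMAD4 and switch on targets that include the Id genes and the feedback inhibitor Smad6. Id proteins have a helix-loop-helix domain but no DNA-binding region, and they hold the E proteins in dimers that cannot bind DNA. In the intestine BMP activity is known to be low at the crypt base, where stem cells lie, and high toward the villus, and much of the ligand is made by the mesenchyme beneath the epithelium.

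The totals of the 6 libraries ran from 45289760 to 72547738 expected counts. The 4 factor genes rose at both doses: Pou5f1 was at 0.243 and 0.140 CPM in control, 136 and 141 CPM at the low dose and 486 and 512 CPM at the high dose. CPM here means expected counts scaled to a common library size, with TMM correction. The 5 epithelial markers summed to 2092 to 3077 TPM over the libraries, where TPM is a gene's share of transcripts corrected for length. Krt8, Vil1 and Cdh1 of that list were higher at the high dose than in control, and Epcam and Krt18 were lower. The 12 markers of fibroblasts and other mesenchyme summed to 0.360 to 0.580 TPM in control, 0.630 to 0.750 TPM at the low dose and 2.23 to 2.89 TPM at the high dose, with 4 of the 12 past the low-count filter and Foxl1 at 0 in every library. The 4 went both ways at the high dose: Dcn, Col1a1 and Gli1 were higher, at 1.23, 0.740 and 0.370 TPM on average, and Pdgfrb was lower, at 0.240 TPM in control and 0.050 TPM at the high dose. The 4 endothelial markers summed to at most 1.18 TPM in a library, with Cdh5 at 0 throughout and Tek the 1 that was tested.

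In control organoids the type I receptor gene Bmpr1a was the most abundant of the 10 per length, at 26.3 and 27.4 TPM. Id1 (22.03 and 17.2 TPM) and Id2 (20.3 and 16.4 TPM) came next and overlapped each other. Id3 followed at 13.2 and 10.3 TPM, then Bmp7 at 8.07 and 8.57, Bmpr2 at 5.85 and 6.01, Bmp3 at 5.64 and 5.45 and Bmp2 at 3.74 and 3.41 TPM. Smad6 stood at 0.430 and 0.590 TPM, and Bmp4 was close to absent. At the low dose Id1 led at 34.8 and 30.6 TPM, Id3 and Id2 overlapped each other behind it, and Bmpr1a followed at 22.04 and 21.8 TPM. Bmpr2 and Bmp2 overlapped at that dose, ahead of Bmp7, Bmp3, Smad6 and Bmp4. At the high dose Id1 led at 67.4 and 59.4 TPM, followed by Id3, Id2, Bmpr1a, Bmp2, Bmpr2 and then Bmp7. At that dose Bmp3 (0.130 and 0.290 TPM) and Smad6 (0.17 and 0.15 TPM) could not be ranked against each other.

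**Figure D1:**
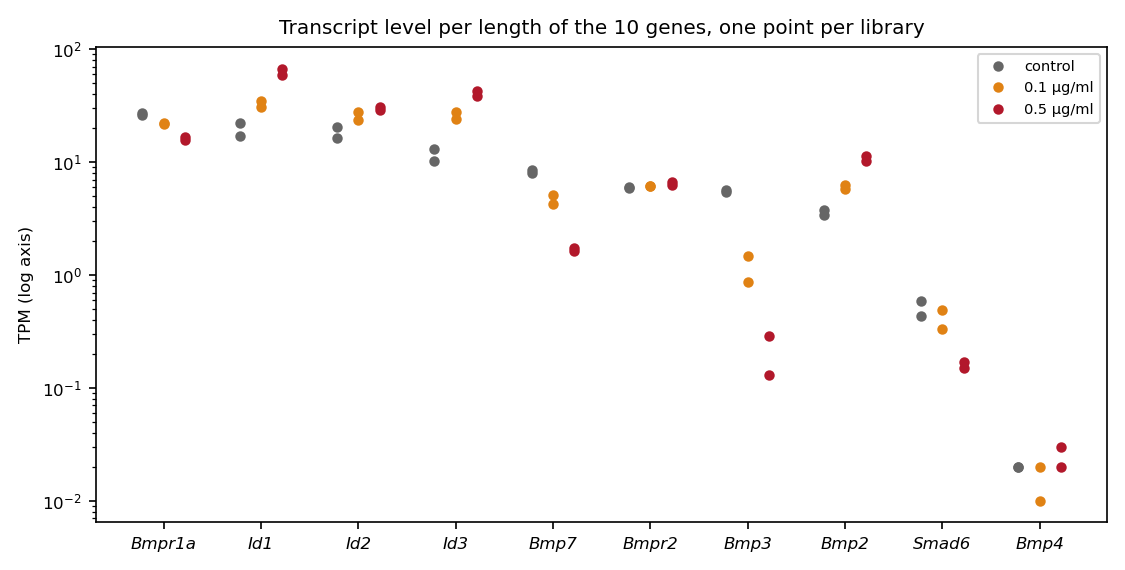
TPM on a log axis for each of the 10 genes, ordered by their control mean, with 1 point per library and colours for control, 0.1 and 0.5 µg/ml doxycycline. The points of Id1, Id2, Id3 and Bmp2 climb from control to 0.5 µg/ml, those of Bmp7, Bmp3 and Bmpr1a descend, Bmpr2 stays between 5.85 and 6.64 TPM, and Bmp4 lies at 0.010 to 0.030 TPM.

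Across the dose groups the tested ligand genes moved in opposite directions, and the Id genes rose by unequal amounts. Bmpr1a fell with dose, and Bmpr2 was close to flat. At the low dose against control 7 of the 9 tested genes passed the test, 4 higher and 3 lower, where 34.6% of all tested genes passed in either direction, 20.8% higher and 13.8% lower (two-sided quasi-likelihood test of edgeR with p adjusted over 16975 genes and a threshold of 0.05). At the high dose against control 9 of 9 passed, 5 higher and 4 lower, where 67.5% of all tested genes passed, 34.4% higher and 33.1% lower. Between the doses 7 of 9 passed, 3 higher and 4 lower, against 58.9% of all tested genes, 29.8% higher and 29.1% lower. The median log2 fold change of the 9 genes was 0.12, 0.21 and 0.09 in these comparisons, and that of all tested genes 0.02, 0.00 and -0.02, with members on both sides of 0. Libraries did not overlap between groups for 8 of the 9 at the low dose against control and for 9 of 9 in the other comparisons, where 67.8%, 84.1% and 80.7% of all tested genes did not overlap. Bulk RNA does not separate fewer cells of a type from less RNA per cell, and the comparisons share libraries: each dose is set against the same 2 controls.

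**Figure D2:**
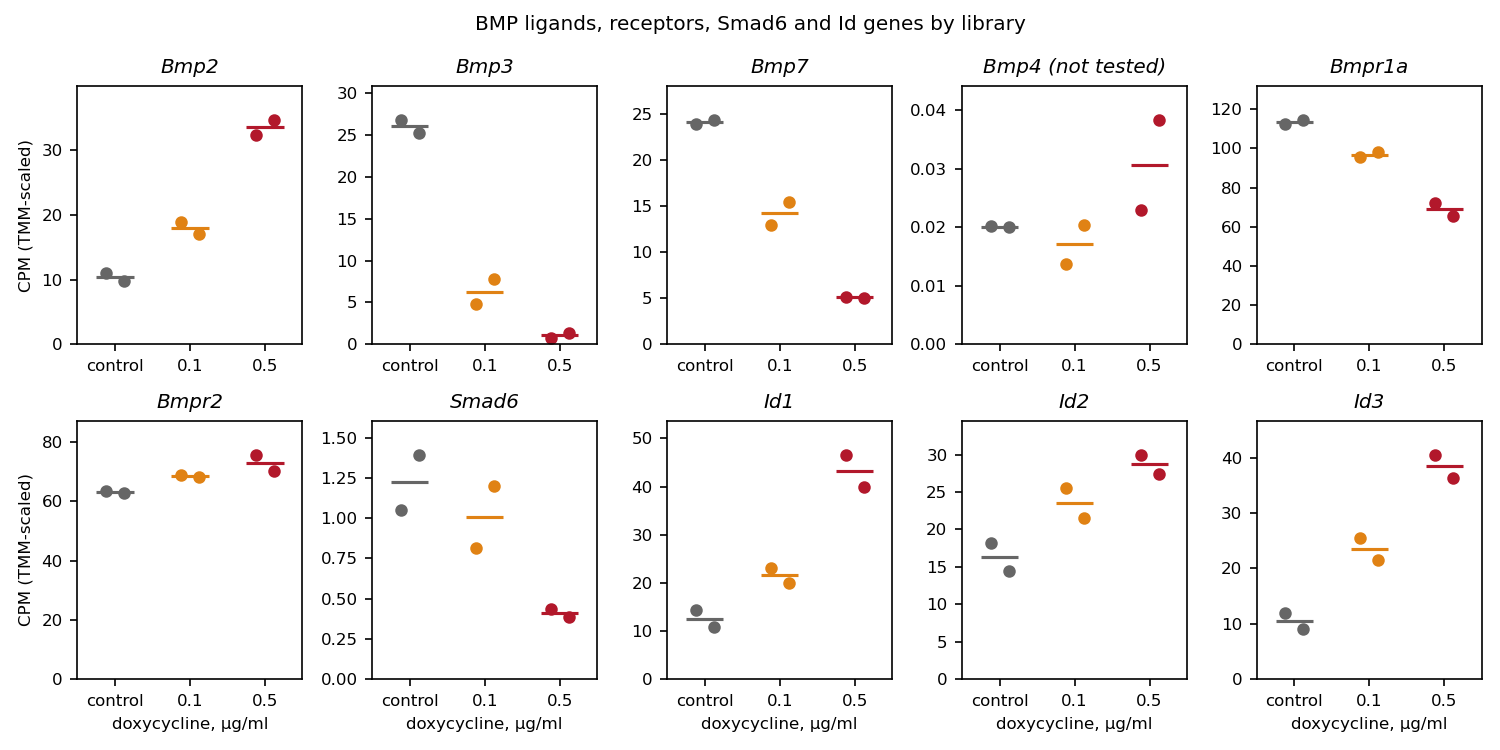
CPM of each gene by library on axes that start at 0, with 2 points and the mean as a line in each group. In 8 of the 10 panels, all but those of Bmp4 and Smad6, the libraries of every group are separate from those of the other groups; Bmp4 rests on 1 or 2 counts per library.

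Bmp2, a ligand known from intestinal epithelium as well as mesenchyme, rose with dose. It stood at 11.04 and 9.77 CPM in control, 18.8 and 17.0 CPM at the low dose and 32.3 and 34.7 CPM at the high dose. The 3 groups did not overlap. The fold change over control was 1.73 at the low dose (log2 0.79 ± 0.0831 SE, edgeR adjusted p = 7.51e-05) and 3.22 at the high dose (log2 1.69 ± 0.0816 SE, adjusted p = 6.20e-08), and Bmp2 also rose 1.87-fold between the doses (adjusted p = 6.27e-06).

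Bmp3 and Bmp7 moved the other way. Bmp3, an atypical family member known to oppose the signalling of other BMPs, stood at 26.9 and 25.3 CPM in control, 4.79 and 7.75 CPM at the low dose and 0.802 and 1.304 CPM at the high dose, the last resting on 35 and 68 counts. Its groups were far apart relative to their spread, and each dose lay below the one before. It fell by 2.08 ± 0.188 SE on the log2 scale at the low dose (edgeR adjusted p = 2.67e-05), and between the doses it fell by 2.52 ± 0.271 SE (adjusted p = 3.19e-05). Its fall over the whole range, 4.60 ± 0.246 SE on the log2 scale, was the deepest of the 9 tested genes.

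Bmp7, a ligand that can pair with Bmp2 or Bmp4 in dimers, stood at 23.9 and 24.4 CPM in control, 12.9 and 15.5 CPM at the low dose and 5.09 and 5.06 CPM at the high dose. No library of one group reached into another. It fell 1.71-fold at the low dose (log2 -0.77 ± 0.0871 SE, edgeR adjusted p = 1.19e-04) and 4.75-fold at the high dose (log2 -2.25 ± 0.0988 SE, adjusted p = 3.16e-08). Bmp4, which is known chiefly as a mesenchymal ligand in the intestine, had 1 count in each control library, 1 in each library at the low dose and 1 and 2 at the high dose. These values lie under 3 counts, the limit that a count of 0 allows, which is 0.0414 to 0.0687 CPM by library and covers counting error only. No difference in Bmp4 was detectable at this depth. The gene overlaps Gm15217 on the opposite strand, which had 0 CPM in every group.

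Within the ligand genes chosen here, the makeup of the transcripts changed more than their sum. Bmp2, Bmp3, Bmp4 and Bmp7 together summed to 17.5 and 17.4 TPM in control. The sum was 11.4 and 12.4 TPM at the low dose and 11.98 and 13.4 TPM at the high dose. It was lower in both dosed groups than in control and overlapped between the doses. Of this sum Bmp2 made up 21.4 and 19.5% in control, 55.1 and 46.4% at the low dose and 85.2 and 84.6% at the high dose. Bmp7 went from 46.2 and 49.1% to 37.3 and 41.5% and then 13.5 and 13.0%. Bmp3 went from 32.3 and 31.2% to 7.56 and 11.9% and then 1.09 and 2.17%. The sum and these shares depend on the choice of genes and leave out all other ligand genes. Of 15 other BMP and GDF ligand genes 8 were tested, with 4 higher and 2 lower at the high dose. Bmp8b averaged 1.81 TPM in control and 6.925 TPM at the high dose, and Gdf15 averaged 35.8 and 11.78 TPM. The libraries of a group differed by less than any step of Bmp2 between groups. With 2 libraries a group an exact permutation test of 1 such value cannot go below p = 0.333.

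**Figure D3:**
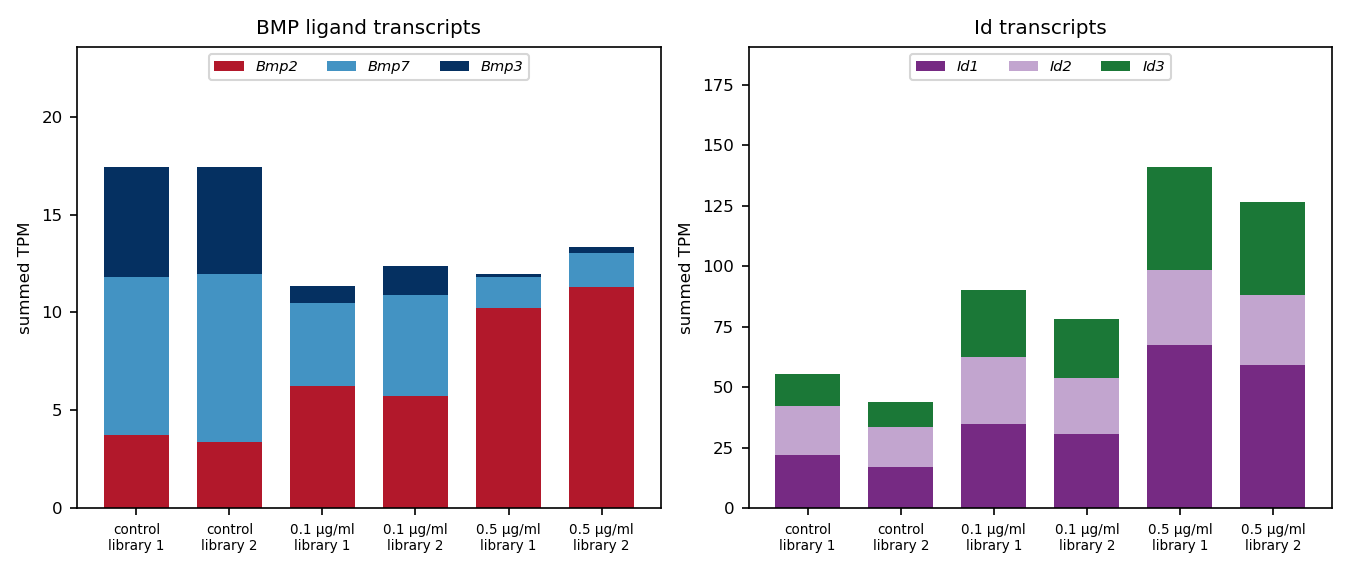
Stacked TPM per library, with Bmp2, Bmp7 and Bmp3 on the left (Bmp4, at most 0.030 TPM, is left out) and Id1, Id2 and Id3 on the right. The Bmp2 segment grows from 3.41 to 11.3 TPM. The sum of the named ligand genes is 17.47 and 17.45 TPM in control and lower, at 11.4 to 13.4 TPM, in the dosed libraries. The Id sum grows from 43.9 TPM in the lowest control library to 141 TPM in the highest at 0.5 µg/ml.

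The nearest patterns to Bmp3 among 10139 genes of at least 5 mean CPM were those of Clca3b, the secretory granule gene Chgb and the tachykinin gene Tac1. Their distances from Bmp3 were 0.566, 0.638 and 0.672 (Euclidean distance between log2(CPM + 0.5) values of the 6 libraries, each gene centred on its control mean). Chgb averaged 231 CPM in control, 69.1 CPM at the low dose and 13.3 CPM at the high dose. The sums of secretory cell and of stem cell markers were lower in the same groups as Bmp3 and Bmp7. The 4 enteroendocrine markers summed to 151 to 197 TPM in control, 50.9 to 58.2 TPM at the low dose and 9.72 to 12.7 TPM at the high dose. The 3 goblet markers summed to 1409 to 1437, 884 to 1028 and 294 to 324 TPM, and the 3 Paneth markers to 2733 to 2910, 797 to 1010 and 276 to 286 TPM. The 4 crypt base stem cell markers summed to 192 to 263, 52.0 to 86.8 and 22.3 to 25.5 TPM. Lgr5, Olfm4 and Smoc2 of that list fell at both doses, whereas Ascl2 rose at the high dose, from 4.74 to 7.16 TPM on average (log2 0.71, edgeR adjusted p = 1.20e-04). None of these markers was at 0 in every library, and their part in the fall of Bmp3 and Bmp7 was not tested.

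Of the receptors, Bmpr1a, which encodes a type I receptor kinase, fell by less than any other gene that fell, and Bmpr2, the type II receptor, was close to flat. Bmpr1a stood at 112 and 115 CPM in control, 95.4 and 98.2 CPM at the low dose and 72.0 and 65.7 CPM at the high dose, with no overlap between groups. It fell 1.17-fold at the low dose (log2 -0.23 ± 0.0506 SE, edgeR adjusted p = 0.00652) and 1.65-fold at the high dose (log2 -0.72 ± 0.0516 SE, adjusted p = 1.04e-06). It overlaps Gm17110 on the opposite strand, which averaged 0.283 to 0.312 CPM over the groups, and whether counting used strand is not known here. Bmpr2 stood at 63.6 and 62.7 CPM, 68.9 and 68.2 CPM, and 75.9 and 70.3 CPM in the same order. It passed the test only at the high dose against control, with a 1.16-fold rise (log2 0.21 ± 0.0487 SE, adjusted p = 0.00353). That call was lost without the first high-dose library (log2 0.14, adjusted p = 0.0658) and with limma on log2(TPM + 1) (log2 0.11, adjusted p = 0.192). The TPM ratio of Bmpr1a to Bmpr2 was 4.503 and 4.55 in control, 3.60 and 3.51 at the low dose and 2.502 and 2.47 at the high dose, with steps between groups larger than the spread within them.

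Smad6, the inhibitory SMAD that BMP signalling is known to induce as feedback, was low throughout and lower at the high dose. It had 52 and 70 counts in control (1.05 and 1.40 CPM), 59 and 59 counts at the low dose (0.814 and 1.20 CPM), and 19 and 20 counts at the high dose (0.435 and 0.384 CPM). The control and low-dose libraries overlapped and the difference did not pass (log2 -0.30 ± 0.264 SE, edgeR adjusted p = 0.413), whereas both high-dose libraries lay below all others. The fall at the high dose was 2.99-fold against control (log2 -1.58 ± 0.309 SE, adjusted p = 0.00124) and 2.42-fold against the low dose (log2 -1.28 ± 0.311 SE, adjusted p = 0.00578). Smad6 thus fell at the dose at which the 3 Id genes were highest.

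Id1, Id2 and Id3 were higher than control at both doses. Id1 stood at 14.3 and 10.9 CPM in control, 23.1 and 20.0 CPM at the low dose and 46.6 and 39.9 CPM at the high dose. It rose 1.72-fold at the low dose (log2 0.78 ± 0.127 SE, edgeR adjusted p = 0.00118) and 3.44-fold at the high dose (log2 1.78 ± 0.125 SE, adjusted p = 9.05e-07). The step between the doses was 2.001-fold (adjusted p = 5.65e-05).

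Id3 stood at 11.9 and 8.996 CPM, 25.5 and 21.5 CPM, and 40.6 and 36.4 CPM in the same order, again without overlap. It rose 2.26-fold at the low dose (log2 1.18 ± 0.126 SE, edgeR adjusted p = 8.35e-05) and 3.68-fold at the high dose (log2 1.88 ± 0.125 SE, adjusted p = 6.00e-07). Most of its rise on the log2 scale was present at the low dose, and the step between the doses was 1.63-fold (adjusted p = 4.83e-04).

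Id2 changed least of the 3. It stood at 18.2 and 14.5 CPM in control, 25.6 and 21.6 CPM at the low dose and 30.0 and 27.4 CPM at the high dose. It rose 1.45-fold at the low dose (log2 0.53 ± 0.113 SE, edgeR adjusted p = 0.00515) and 1.75-fold at the high dose (log2 0.81 ± 0.113 SE, adjusted p = 1.31e-04). The call at the low dose was lost without the first library of that dose (log2 0.39, adjusted p = 0.0571). Between the doses the log2 difference was 0.28 ± 0.108 SE and missed the threshold (adjusted p = 0.0517).

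The unequal rises changed the balance of the Id transcripts. The TPM ratio of Id3 to Id2 was 0.650 and 0.626 in control, 1.00 and 1.04 at the low dose and 1.39 and 1.34 at the high dose. The ratio of Id1 to Id2 was 1.09 and 1.05, then 1.25 and 1.302, then 2.18 and 2.06. Both ratios were closer within groups than the single levels were, and neither overlapped between groups. The 3 genes summed to 55.5 and 43.9 TPM in control, 90.4 and 78.4 TPM at the low dose and 141 and 127 TPM at the high dose, of which Id2 made up 36.6 and 37.4%, 30.7 and 30.0%, and 21.9 and 22.7%. Markers of other cell types went several ways over the same groups. The 3 tuft cell markers summed to 0.890 to 1.65 TPM in control, 73.5 to 73.8 TPM at the low dose and 199 to 205 TPM at the high dose. Nearly all of that was Avil (199 TPM on average at the high dose). Dclk1 rose as well, from 0.080 TPM on average in control to 2.25 TPM at the high dose (edgeR adjusted p = 8.42e-08). Trpm5 fell 5.59-fold at that dose (edgeR adjusted p = 1.69e-04). The 4 immune cell markers summed to 2.39 to 2.99, 4.95 to 5.73 and 14.4 to 14.5 TPM, of which Cd68 alone averaged 2.60, 5.28 and 14.2 TPM, and at the high dose Ptprc averaged 0.090 TPM and Cd3e 0. The 4 enterocyte markers, which mark villus epithelium, summed to 1153 to 1628 TPM in control. Their sum was 1654 to 2146 TPM at the low dose and 728 to 765 TPM at the high dose, where it was lowest. Most of it was Fabp1, which fell at the high dose from 1089 to 515 TPM on average (edgeR adjusted p = 3.40e-04). Alpi, Apoa1 and Apoa4 did not pass at the high dose against control (adjusted p = 0.819, 0.106 and 0.0579). All 3 were higher than control at the low dose, where Fabp1 did not pass (adjusted p = 0.195). The part of these markers in the rises was not tested.

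**Figure D4:**
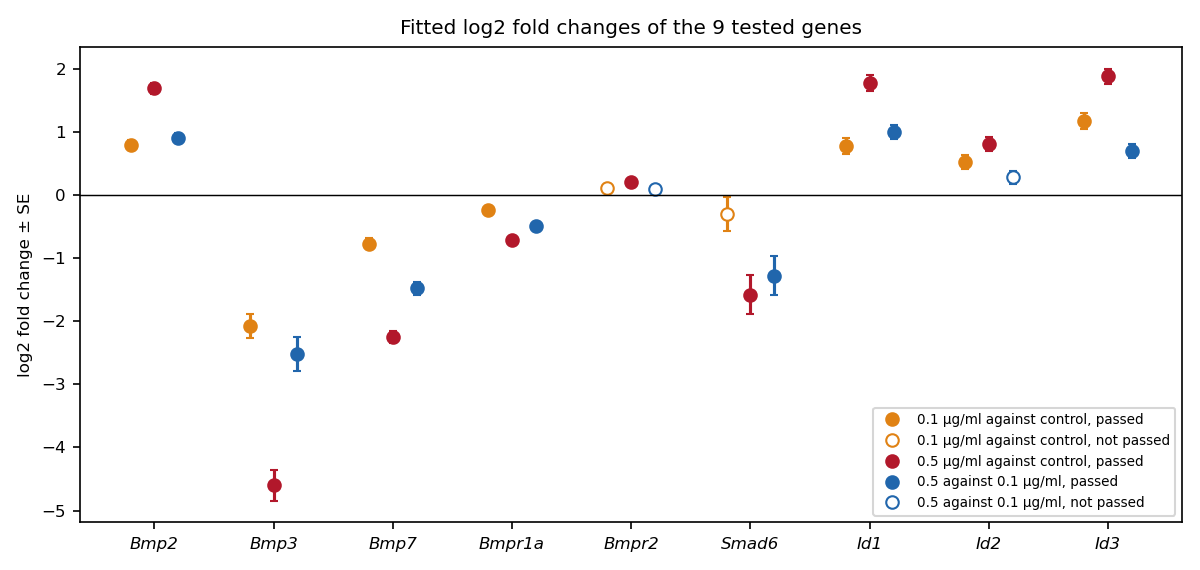
Fitted log2 fold changes with their standard errors for the 9 tested genes in 3 comparisons, with filled points past an adjusted p of 0.05 and open points not past it. Bmp3 reaches -4.60 at 0.5 µg/ml against control, Bmp2, Id1 and Id3 lie between 1.69 and 1.88 in that comparison, and the open points are those of Bmpr2 and Smad6 at 0.1 µg/ml and of Bmpr2 and Id2 between the doses.

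The start regions of Id2 and Id3, whose transcripts rose, and of Smad6, whose transcript fell, are shown for comparison because all 3 genes are known BMP targets. Promoter sequences were given for 6 of the 10 genes, and none was found for Id1, Bmp2, Bmp3 or Bmp7. Those of Bmp4, Bmpr1a and Bmpr2 were searched in the same way and are not shown. Each line holds the 250 bases before the RefSeq start on the gene's strand (GRCm38.p6, which may not be the build of the deposited tables). Capitals mark matches on either strand to GGCGCC (a GC-rich SMAD element), CCACCC (the core of sites bound by Klf factors), CACGTG (an E-box bound by Myc), ATGCAA (part of the octamer bound by Oct4) and ATTGTT (a Sox site).
Id2, chr12:25096093-25096342, minus strand: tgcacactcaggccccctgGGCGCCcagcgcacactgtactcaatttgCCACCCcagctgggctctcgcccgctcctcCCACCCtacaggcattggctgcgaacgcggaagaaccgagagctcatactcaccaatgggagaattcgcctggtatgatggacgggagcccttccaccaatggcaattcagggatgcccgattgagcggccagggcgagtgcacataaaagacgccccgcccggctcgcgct
Id3, chr4:136143572-136143821, plus strand: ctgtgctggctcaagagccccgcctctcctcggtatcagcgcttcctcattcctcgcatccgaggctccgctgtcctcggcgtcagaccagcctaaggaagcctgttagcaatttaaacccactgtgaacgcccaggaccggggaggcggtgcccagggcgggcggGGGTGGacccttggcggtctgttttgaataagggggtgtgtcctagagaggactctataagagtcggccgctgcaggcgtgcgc
Smad6, chr9:64022060-64022309, minus strand: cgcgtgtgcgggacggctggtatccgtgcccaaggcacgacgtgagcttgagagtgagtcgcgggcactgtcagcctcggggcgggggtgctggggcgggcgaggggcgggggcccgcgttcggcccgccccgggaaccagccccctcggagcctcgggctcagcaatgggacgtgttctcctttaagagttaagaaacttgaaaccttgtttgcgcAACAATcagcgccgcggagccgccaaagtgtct
The Id2 window holds 1 GGCGCC and 2 CCACCC matches, the Id3 window 1 CCACCC match on the reverse strand, written GGGTGG, and the Smad6 window 1 ATTGTT match on the reverse strand, written AACAAT. Of 32851 promoter windows of the same length in the table, 28.1% hold CCACCC, 9.59% hold GGCGCC and 9.42% hold ATTGTT. None of the 3 windows holds CACGTG (6.02% of all windows) or ATGCAA (9.45%), and no matches overlap each other. The short SMAD box GTCT, left in lower case, is in all 3 windows and in 82.9% of all windows. Of the windows not shown, those of Bmpr1a and Bmpr2 each hold 1 GGCGCC match and that of Bmp4 holds 1 CACGTG match. GC content was 62.8% for Id2, 62.8% for Id3 and 66.8% for Smad6, with a median of 52.4% over all windows. These matches describe the letters only and were not tested against binding.

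The nearest patterns to the Id genes, by the same distance as for Bmp3, were looked up for Id1, Id2 and Id3. Those of Id1 were Zyx, Atg2a and Abcb6, at distances of 0.248, 0.277 and 0.292. Those of Id2 were Ncoa7, Tmem184c and Leng9, at 0.205, 0.226 and 0.236. Those of Id3 were Tstd3, Ccdc68 and Klf3, at 0.289, 0.303 and 0.338. Zyx, for instance, averaged 69.6 CPM in control and 116 CPM at the low dose. The distances are a description over 6 libraries and carry no test.

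The rest of the pathway was described from 7 lists of 84 genes, of which 53 were tested. At the high dose 20 of these were higher and 21 lower, where the shares over all tested genes were 34.4% higher and 33.1% lower. The low dose gave 16 higher and 15 lower, where the shares over all tested genes were 20.8% and 13.8%. The low-dose total of 31 came to 16 with limma on log2(TPM + 1). The lists cover other ligands, receptors, extracellular antagonists, SMADs, targets, the E proteins, and the TGF-beta and activin branch.

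The fourth Id gene, Id4, which is known from other tissues as a BMP target, rose as well. It stood at 1.44 and 1.06 CPM in control, 6.62 and 5.65 CPM at the low dose and 30.3 and 32.0 CPM at the high dose. Per length this was 0.450 and 0.340 TPM in control and 8.80 and 9.60 TPM at the high dose, still below the level of Id2. The rise was 4.94-fold at the low dose (log2 2.31 ± 0.148 SE, edgeR adjusted p = 2.50e-06) and 25.0-fold at the high dose (log2 4.64 ± 0.134 SE, adjusted p = 1.75e-09), and whether it differed from the rises of Id1 to Id3 was not tested.

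Of the 6 tested genes among 10 other BMP targets, 4 were higher at the high dose (Id4, Msx2, Smad7 and Tbx3) and 2 lower (Bambi and Atoh8), where 67.5% of all tested genes passed. The median log2 fold change was 0.48, and 0.00 over all tested genes. Smad7, the second inhibitory SMAD, averaged 6.66 ± 1.52 CPM in control and 8.65 ± 0.0236 CPM at the high dose (SD, n = 2; edgeR adjusted p = 0.0360), a 1.2996-fold difference. That call was lost without any 1 of 4 libraries, among them the second control (log2 0.13, adjusted p = 0.324), and with limma on log2(TPM + 1) (log2 0.11, adjusted p = 0.600). Bambi, a decoy receptor that BMP and Wnt signals are known to induce, fell 2.20-fold from 2.497 ± 0.738 to 1.14 ± 0.261 CPM (adjusted p = 0.00312). Msx2 rested on 0 and 1 counts in control and 28 and 27 counts at the high dose, and Atoh8 on 12 and 11 counts in control and 1 and 2 counts at the high dose. Tbx3, a transcription factor, was 1.496-fold higher at the high dose (adjusted p = 1.22e-04). At the low dose Id4, Msx2 and Tbx3 were higher and Bambi lower, and the Bambi call was lost without the first control library (adjusted p = 0.161) or the first low-dose library (adjusted p = 0.143).

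The E proteins, partners of the Id proteins, were lower in each of 3 cases. Over all tested genes 13.8% were lower at the low dose and 33.1% at the high dose. Tcf3 (E2A) went from 94.6 and 87.7 CPM in control to 76.5 and 73.0 CPM at the low dose and 59.9 and 61.3 CPM at the high dose. At the high dose Tcf3 had a log2 fold change of -0.59 ± 0.0514 SE (edgeR adjusted p = 4.49e-06), Tcf12 of -0.72 ± 0.0476 SE (adjusted p = 6.16e-07) and Tcf4 of -0.55 ± 0.0831 SE (adjusted p = 2.40e-04). All 3 had passed in the same direction at the low dose, with log2 values from -0.35 to -0.29. Id1, Id2 and Id3 transcripts were thus higher, and E protein transcripts lower, at both doses. The call of Tcf4 at the low dose did not survive limma on log2(TPM + 1), with an adjusted p = 0.0682.

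Among 15 other BMP and GDF ligand genes 8 were tested. Of these 4 were higher at the high dose (Gdf5, Gdf3, Bmp8b and Bmp8a) and 2 lower (Gdf15 and Gdf9). The shares over all tested genes were 34.4% higher and 33.1% lower, or 67.5% in either direction. Gdf5, a ligand best known from joint formation, had 0 counts in both control libraries, 2.43 and 2.39 CPM at the low dose and 9.10 and 8.34 CPM at the high dose, which is at least 39.9-fold and at least 144.6-fold higher than control when control is set to 3 counts per library. Bmp8b rose 4.08-fold at the high dose, from 3.81 and 4.51 CPM to 16.6 and 17.4 CPM (log2 2.03 ± 0.106 SE, edgeR adjusted p = 1.04e-07), and at 6.66 and 7.19 TPM it was second to Bmp2 among the BMP ligand genes at that dose. Bmp8a and Bmp8b are close paralogues between which the counting could split reads. The Bmp8a call at the high dose was lost without the second control library (adjusted p = 0.162) or either library of that dose (adjusted p = 0.0525 and 0.144). Gdf3, a ligand of pluripotent cells, had 5 and 0 counts in control and 178 and 186 counts at the high dose. Gdf15, a distant family member that signals through GFRAL and not a BMP receptor, fell 2.82-fold, from 42.8 and 32.8 CPM to 13.5 and 13.4 CPM (adjusted p = 2.85e-06). The 7 untested ligand genes had at most 1 count in any library.

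Of 10 other receptors and co-receptors 8 were tested, 2 of them higher and 4 lower at the high dose, a share near the 67.5% of all tested genes that passed. The risers were co-receptors that control organoids barely expressed. Eng (endoglin, a co-receptor best known from endothelium) went from 4 and 3 counts in control to 329 and 423 counts at the high dose, or from 0.0810 and 0.0598 to 7.54 and 8.11 CPM. Of the endothelial markers Tek rose as well, from 12 and 5 counts to 175 and 169 counts (adjusted p = 1.49e-06), and Cdh5 was at 0; their part in the rise of Eng was not tested. Rgma, a BMP co-receptor of the repulsive guidance family, went from 0.142 and 0.0798 to 4.605 and 6.27 CPM. The 4 that fell were its paralogue Rgmb, their receptor Neo1, and the type II receptors Acvr2a and Acvr2b, by 0.45 to 0.78 on the log2 scale (edgeR adjusted p from 5.66e-07 to 3.42e-04). The type I receptor Acvr1 stood at 16.0 and 15.0 CPM in control and 15.1 and 15.2 CPM at the high dose and did not pass (adjusted p = 0.724). At the low dose Eng and Rgma were higher and Rgmb and Neo1 lower.

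Of 19 extracellular antagonists and modulators only 6 were tested, and the classical antagonists Nog, Chrd and Grem1 were among the 13 too low to test. At the high dose Bmp1, a protease that cleaves the antagonist chordin, rose 4.596-fold, from 2.92 and 2.87 CPM to 12.3 and 14.3 CPM (log2 2.20 ± 0.143 SE, edgeR adjusted p = 5.25e-07). Fstl3, which binds activins, and Nbl1 (DAN), a BMP antagonist, rose 3.34-fold and 2.43-fold, to 3.23 ± 0.227 and 2.44 ± 0.241 CPM (SD, n = 2). Crim1, a membrane protein that binds BMPs, fell 3.38-fold from 59.6 and 53.9 CPM to 18.1 and 15.6 CPM (adjusted p = 1.16e-07). Twsg1, which binds BMPs together with chordin, fell 2.76-fold from 46.5 and 48.4 CPM to 16.9 and 17.4 CPM (adjusted p = 2.44e-08). At the low dose Bmp1 was higher and Crim1 and Twsg1 lower, and the Bmp1 call was lost without the first low-dose library (log2 0.44, adjusted p = 0.0879) and with limma on log2(TPM + 1) (log2 0.26, adjusted p = 0.170).

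Of the SMADs that carry the BMP signal, Smad9 was too low to test, with at most 7 counts in a library. The others changed by 0.51 or less in size on the log2 scale at the high dose against control. Smad1 stood at 34.1 and 34.5 CPM in control and 37.0 and 32.4 CPM at the high dose and did not pass (edgeR adjusted p = 0.845). At the low dose it stood at 38.0 and 40.9 CPM (log2 0.20 ± 0.0673 SE, adjusted p = 0.0437), a call lost without any 1 of the 4 libraries compared (adjusted p from 0.0662 to 0.280). Smad4 likewise did not pass (log2 0.10 ± 0.0550 SE, adjusted p = 0.144), while Smad5 fell by 0.51 ± 0.0571 SE on the log2 scale (adjusted p = 2.76e-05). Of the 11 tested genes of 12 in this list 5 were higher at the high dose and 1, Smad5, lower. Over all tested genes 34.4% were higher and 33.1% lower in that comparison. The 5 higher genes were the ubiquitin ligases Smurf1, Smurf2 and Nedd4l, the SMAD corepressor Ski, and Tob1, an inhibitor of BMP SMADs. The ubiquitin ligases are known to mark receptors or SMADs for breakdown. Tob1 rose most, 2.05-fold from 75.8 and 72.1 CPM to 155 and 149 CPM (adjusted p = 4.20e-08), and the other 4 rose by 0.50 to 0.65 on the log2 scale.

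**Figure D5:**
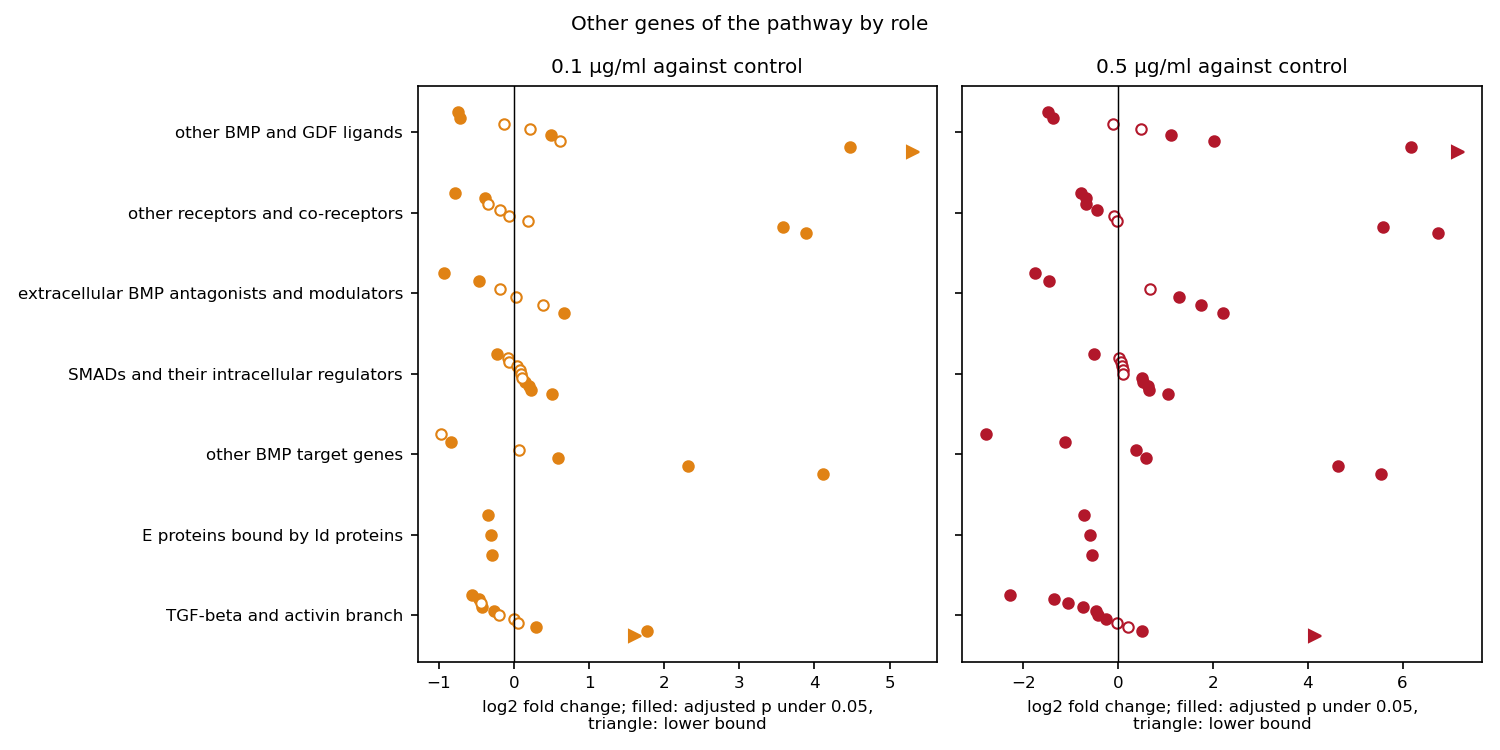
Log2 fold changes of the 53 tested genes of the 7 pathway lists at 0.1 µg/ml (left) and 0.5 µg/ml (right) against control, 1 point per gene, filled where the adjusted p was under 0.05. Triangles are lower bounds for Gdf5 and Inhbb, which had 0 counts in control. The 3 E proteins lie below 0 in both panels. The SMADs and their regulators lie between -0.51 (Smad5) and 1.04 (Tob1) at 0.5 µg/ml.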

How the data were processed

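RNA-seq of 6 libraries was analysed. Per the submitters' processing notes, the authors used RSEM 1.3.3, STAR 2.7.3a, Trim Galore and FastQC. Both GRCm39 and mm10 appear there with no role, so no coordinates are given in the build of the tables. The deposited expected counts and the deposited TPM values are RSEM estimates per gene, shared out by the authors' tool where reads fit several genes. Symbols were matched for 52083 of 55416 gene identifiers (94.0%).

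Expected counts were rounded to whole numbers and tested with edgeR 4.0.16 (R 4.3.3): filterByExpr by group, TMM, and a quasi-likelihood F-test on all 6 libraries with 1 mean per group (3 residual degrees of freedom). Adjusted p-values are Benjamini-Hochberg over all 16975 genes tested, which held 99.96% of counts. The standard error is the log2 fold change divided by the square root of F. CPM values use the TMM library sizes. Total depth was 45289760 to 72547738, and the limit for a count of 0 is 3 counts. Simulated counts for 0.5 µg/ml against control held 15845 genes, 50 changed per size. The test recovered 74% at a log2 change of 0.5, 84% at 1 and 100% at 2, with 6.28% false calls. The changed genes were few, had mean control counts of at least 50 and moved in random directions. In the data 67.5% of tested genes passed in that comparison, so these rates may not hold for it.

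Alternatives were RLE and upper quartile scaling, no filter, DESeq2 1.42.0, limma 3.58.1 on log2(TPM + 1) and log2(TPM + 0.1), a replicate block, the compared groups alone, and each library left out. The members and lists were chosen with earlier results of these data known. Beside the 10 genes, the text names pathway genes that passed at 0.5 µg/ml with a log2 change of 1 or more in size and 5 CPM or more in any group (at most 4 per list and direction), members of counts of 5 or fewer, and the 3 nearest patterns of Bmp3, Id1, Id2 and Id3, leaving out Gm and Rik symbols. A few other genes (Nog, Chrd and Grem1) were named after their values were seen. Promoter sequences and their coordinates are those of RefSeq on GRCm38.p6.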

Additional observations from a re-analysis of the deposited data

How the results depend on the processing

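Over all alternatives no log2 fold change of the 9 tested genes or of the other pathway genes changed sign among calls. Of 399 values of the 9 genes under an alternative, 383 kept their side of the threshold, 8 lost a call and 8 gained one. Pathway genes called at the low dose numbered 31 and came to 16 with limma on log2(TPM + 1), 16 on log2(TPM + 0.1) and 15 without a filter, where 41, 41 and 73 genes were tested; the cause was not tested. Leaving out 1 library gave 6 to 7, 8 to 9 and 7 to 8 of the 9 genes called at the low dose, at the high dose and between the doses, and 22 to 32, 39 to 43 and 32 to 39 pathway genes; a group left with 1 library is assumed to vary like the others. Without a filter, limma lost Id1 at the low dose (adjusted p = 0.0538), Id2 at the low dose (adjusted p = 0.118) and Smad6 between the doses (adjusted p = 0.0713). Id2 between the doses passed under 8 alternatives, among them DESeq2 (adjusted p = 0.0335). Over all tested genes the differences between replicates correlated little from group to group (-0.11, 0.114 and -0.0167). These values cannot settle whether replicate numbers pair the libraries. For Id1, Id2 and Id3 the first library was the higher in every group. With a replicate block in edgeR, Id2 between the doses passed (log2 0.29, adjusted p = 0.00623). With the replicate block 7, 9 and 8 of the 9 genes and 30, 41 and 35 pathway genes were called. Chosen after seeing the data, CPM in place of TPM gave a Bmp2 share of 17.1% in control and an Id3 to Id2 ratio of 0.996 at the low dose. Depth limits Bmp4, Smad6, Msx2 and Atoh8.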

Other observations

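The TGF-beta and activin branch, which shares SMAD4 with BMP signalling, had 11 of 15 listed genes tested. At the high dose 2 were higher, 7 lower and 2 not past the test, where the shares over all tested genes were 34.4% higher and 33.1% lower, with a median log2 fold change of -0.42 beside 0.00 for all tested genes. Tgfbr1, the type I TGF-beta receptor, went from 50.6 and 47.3 CPM in control to 33.4 and 37.6 CPM at the low dose and 19.4 and 18.7 CPM at the high dose. It fell 2.57-fold at the higher dose (edgeR adjusted p = 7.86e-08). Acvr1c (ALK7), a type I receptor for nodal and activins, fell 4.90-fold, from 6.64 and 8.48 CPM to 1.47 and 1.61 CPM (adjusted p = 8.16e-07). Its call at the low dose was lost without the second control library (adjusted p = 0.0553). Smad3 fell 1.67-fold (adjusted p = 1.22e-06), while Smad2 stood at 46.0 and 46.1 CPM in control and 44.8 and 45.8 CPM at the high dose and did not pass (adjusted p = 0.662).

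Tgfbr2, the type II TGF-beta receptor, moved opposite to Tgfbr1 and rose 1.41-fold at the high dose, from 105 and 107 CPM to 155 and 146 CPM (edgeR adjusted p = 5.31e-06). Tgfbr3 (betaglycan), a co-receptor, was highest at the middle dose: it stood at 1.42 and 1.42 CPM in control, 5.24 and 4.403 CPM at the low dose and 1.65 and 1.63 CPM at the high dose. It rose 3.41-fold at the low dose (adjusted p = 2.32e-05) and fell 2.95-fold between the doses (adjusted p = 1.84e-05), and at the high dose the difference from control did not pass (log2 0.21 ± 0.177 SE, adjusted p = 0.315). Inhbb, an activin subunit gene, had 0 counts in both controls, 15 and 8 counts at the low dose and 48 and 55 counts at the high dose, at least 3.07-fold and at least 17.9-fold higher with control set to 3 counts per library.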
